A study of Homo sapiens with 12 samples.

Results

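The snoRNA host genes described here are 9 noncoding genes, GAS5, SNHG1, SNHG5, SNHG6, SNHG7, SNHG8, SNHG12, SNHG15 and SNHG16, taken by gene name from a table of read counts that holds 40591 named genes. All 9 were found, each once, and all 9 passed the filter on low counts. Poly(A) RNA came from the human retinal pigment epithelium line ARPE-19, which is established in culture, in 12 libraries that fall into 4 groups of 3. The labels name the groups WT, GFP, GSTA4 and OSK. They are read here as ARPE-19 without an added reading frame, and as stable lines that express green fluorescent protein as a control, glutathione S-transferase alpha 4, and the factors POU5F1 (OCT4), SOX2 and KLF4. The expressing lines were collected after 4 days of expression. The labels do not say how many stable lines stand behind a group or how the WT cells were grown, so an expressed protein and another difference between lines cannot be told apart, and p-values measure the spread between libraries, which may be technical.

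A snoRNA host gene carries small nucleolar RNAs inside its introns. After splicing, the intron is trimmed to the snoRNA, which enters a ribonucleoprotein and guides the chemical modification of ribosomal RNA: box C/D snoRNAs guide 2′-O-methylation and box H/ACA snoRNAs guide pseudouridylation. The spliced exons of noncoding host genes code for no long protein, and those that reach ribosomes can be removed by nonsense-mediated decay. Many of these genes start at a C followed by a run of pyrimidines, the 5′ terminal oligopyrimidine (TOP) sequence shared with ribosomal protein genes, whose translation depends on growth signalling. GAS5, growth arrest-specific 5, was named for its accumulation in cells that have stopped growing. Poly(A) libraries read the spliced exons, so the values below are levels of the host transcripts and not of the snoRNAs.

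By the RefSeq annotation, the introns of GAS5, SNHG1, SNHG5, SNHG6 and SNHG16 hold mainly box C/D snoRNAs (names beginning SNORD), those of SNHG7, SNHG8 and SNHG15 hold box H/ACA snoRNAs (names beginning SNORA), and SNHG12 holds both kinds. GAS5 spans 11 annotated snoRNAs and SNHG1 spans 9. SNHG12 spans 4, SNHG16 spans 3, SNHG5 and SNHG7 span 2 each, and SNHG6, SNHG8 and SNHG15 span 1 each. In GENCODE release 29 on GRCh38, GAS5 lies at chr1:173863900-173868882, SNHG1 at chr11:62851988-62855914, SNHG5 at chr6:85660950-85678748, SNHG7 at chr9:136721366-136728184, SNHG12 at chr1:28578538-28583132 and SNHG15 at chr7:44983023-44986961, all on the minus strand. SNHG8 lies at chr4:118278709-118279823 and SNHG16 at chr17:76557766-76565348, both on the plus strand. The annotation release behind the count table is not given in the sources used here.

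The start sites are shown because a pyrimidine run there is a feature that many snoRNA host genes share with the ribosomal protein genes described further on. The windows run from 20 bases before the RefSeq start to 40 bases from it onwards (RefSeq, GRCh38.p14), read 5′ to 3′ on the strand of the gene, and were read for the 7 members matched in the promoter table. The window of GAS5 is replaced by a first exon, as described after the windows. Capitals mark a C followed without a break by at least 4 C or T, where that run begins within 10 bases of the start.
SNHG5, chr6:85678694-85678753: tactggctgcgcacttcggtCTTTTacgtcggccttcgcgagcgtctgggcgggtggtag
SNHG7, chr9:136728145-136728204: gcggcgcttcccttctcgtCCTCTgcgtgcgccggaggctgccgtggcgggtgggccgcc
SNHG8, chr4:118278742-118278801: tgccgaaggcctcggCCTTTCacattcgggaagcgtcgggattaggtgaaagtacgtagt
SNHG12, chr1:28581834-28581893: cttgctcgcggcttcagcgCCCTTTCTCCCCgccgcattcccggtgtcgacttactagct
SNHG16, chr17:76557744-76557803: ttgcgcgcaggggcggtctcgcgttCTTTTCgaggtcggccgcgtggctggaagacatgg
SNHG1, chr11:62855846-62855905: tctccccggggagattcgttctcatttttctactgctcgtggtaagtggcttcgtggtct
The run was present in 5 of the 7 windows, and the windows of SNHG1 and GAS5 held none at that place. Another annotated start was read for GAS5 alone and not for SNHG1. The RefSeq start of GAS5 lies 1056 bases upstream of the start that 6 of its 29 GENCODE transcripts share, more than share any other start. The first exon from that start is 30 bases long and opens with a run.
GAS5 first exon, chr1:173867960-173867989: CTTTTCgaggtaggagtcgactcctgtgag
It shares the 11 letters CTTTTCGAGGT with the SNHG16 window. Of 35116 promoters in the table, 31.4% held such a run at the start on the sense strand and 30.3% on the other strand, against 82.1% and 19.2% of 78 ribosomal protein promoters, which gives the base rate of the pattern. A match is a description of the letters, and no match says only that they are absent from this window.

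The expressed genes were high in the libraries labelled for them. GSTA4 stood at 416 ± 17.6 CPM (SD, n = 3) in the GSTA4 group and at 5.47 to 20.2 CPM on average in the other groups. POU5F1, SOX2 and KLF4 averaged 779, 628 and 928 CPM in OSK and at most 1.57 CPM elsewhere. Total counts ran from 12630675 to 17045454 reads a library, and the 9 host genes held 6507 to 12480 of them. CPM here is a gene's read count scaled to a common library size, over named genes and after TMM scaling, and 3 reads, the most that a count of 0 allows, were worth 0.177 to 0.228 CPM. The lowest count of any member was 96 reads. No molecular identifiers are stated, so the floor covers counting error only. WT replicate 1 stood apart from the other WT libraries (chi-square per degree of freedom 15.0 and 17.5, against 2.54 to 6.98 between other replicates). In GFP replicate 1, 27349 named genes had reads, and in the other libraries 19488 to 22073. Of 15 retinal pigment epithelium markers, 11 passed the low-count filter. KRT8, which passed it, averaged 1247 CPM in WT, while RPE65, RGR, DCT and TTR did not pass it and averaged under 0.50 CPM in every group.

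Added together, the 9 host genes were highest in GSTA4 and lowest in OSK. Their summed level was 793 ± 10.4 CPM in GSTA4, 622 ± 16.5 in GFP, 591 ± 18.8 in WT and 475 ± 12.1 in OSK (SD, n = 3 each). The lowest GSTA4 library, at 783 CPM, lay above the highest GFP library, at 641 CPM, and the highest OSK library, at 487 CPM, lay below the lowest WT library, at 575 CPM. GAS5 alone supplied 40.3% ± 0.577 of these reads in GSTA4, 37.2% ± 0.944 in GFP, 37.2% ± 0.407 in OSK and 34.9% ± 1.56 in WT, so the sum leans on it. In cultures measured in bulk, fewer cells of a type and less RNA per cell cannot be told apart. Across the 4 groups, edgeR's quasi-likelihood F test with Benjamini-Hochberg adjustment called all 9 members, with adjusted p from 3.23e-10 for GAS5 to 0.00218 for SNHG6. Over all 15179 genes tested, 66.9% were called.

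**Figure D1:**
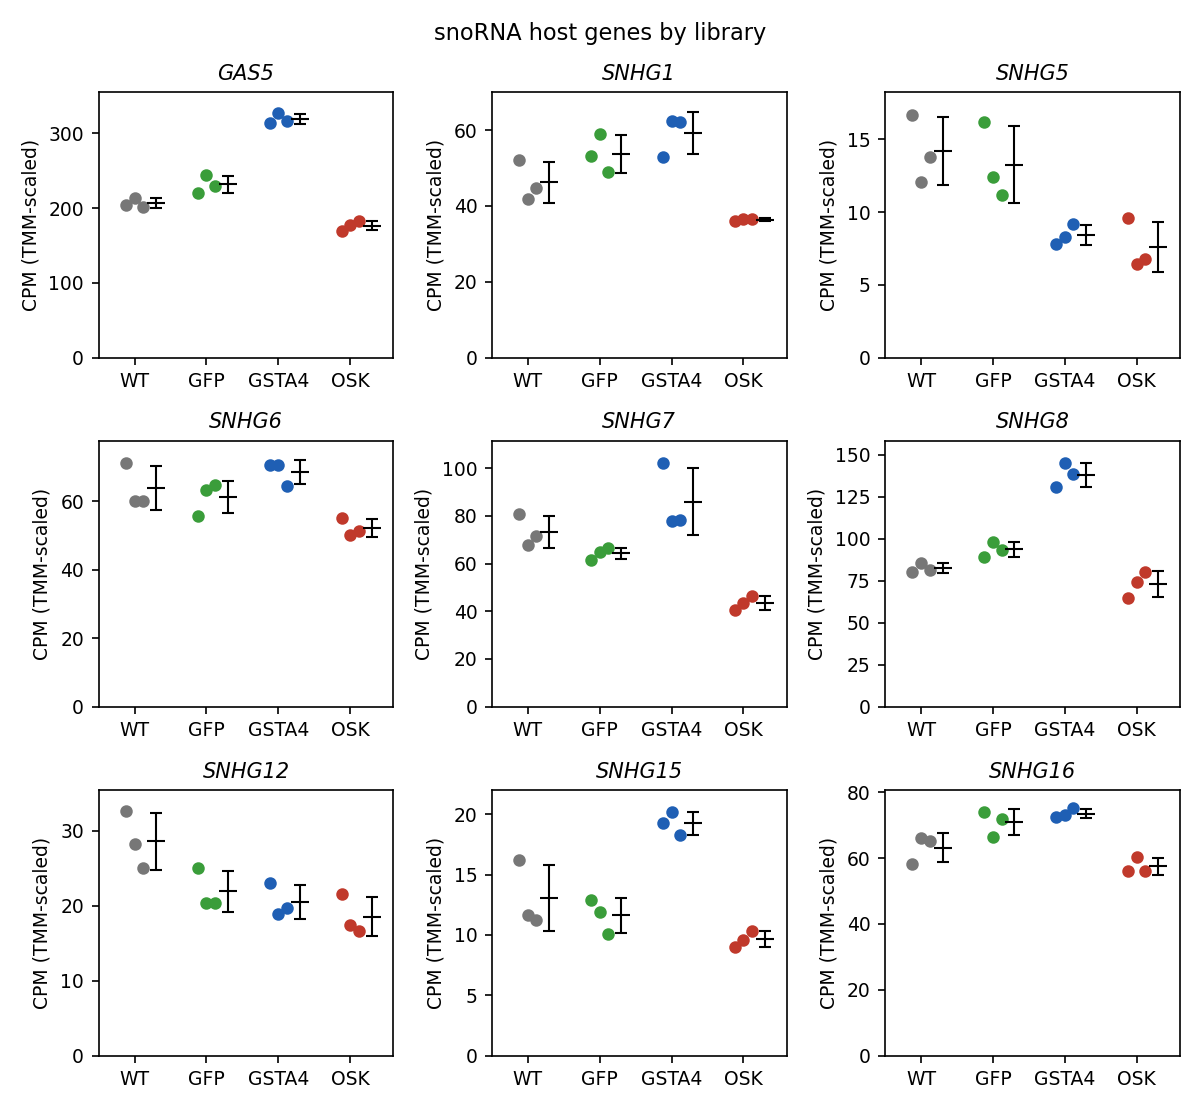
TMM-scaled CPM (y axis, from 0) of each snoRNA host gene in the 12 libraries by group. Points are libraries, bars are the mean and SD of 3. GAS5, SNHG7, SNHG8 and SNHG15 have all GSTA4 points above all GFP points, SNHG5 has them below, and no OSK point of GAS5, SNHG1 or SNHG7 reaches a GFP point.

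GSTA4 cells were compared with GFP cells to ask what expression of this detoxifying enzyme changes relative to a control protein. GAS5 and the 3 hosts of H/ACA snoRNAs alone, SNHG7, SNHG8 and SNHG15, were higher in GSTA4, by 1.34- to 1.66-fold. SNHG5, the host of the U50 snoRNAs (SNORD50A and SNORD50B), was lower. SNHG1, SNHG6, SNHG12 and SNHG16 were not called. Of all genes tested, 29.2% were called in this contrast, 14.7% higher and 14.6% lower, beside 4 members higher and 1 lower of 9. The members' median log2 difference was 0.16, against 0.01 over all genes.

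GAS5, the member with the most reads, stood at 221, 244 and 229.9 CPM in the GFP libraries and at 314, 327 and 317 CPM in the GSTA4 libraries. The groups did not overlap, and each GSTA4 library exceeded every other library of the study. The fitted difference was 1.38-fold (log2 0.46, SE 0.0567, edgeR adjusted p = 2.48e-06). SNHG8, the host of SNORA24, stood at 89.4, 98.4 and 93.3 CPM in GFP and at 131, 145 and 139 CPM in GSTA4. Again no GFP library reached a GSTA4 library. The difference was 1.47-fold (log2 0.56, SE 0.0712, edgeR adjusted p = 4.2e-06).

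SNHG15, the host of SNORA9, had few reads but a larger fold. It stood at 12.9, 11.9 and 10.1 CPM in GFP and at 19.3, 20.2 and 18.3 CPM in GSTA4. The groups were apart, although WT replicate 1 reached 16.2 CPM. The difference was 1.66-fold (log2 0.73, SE 0.14, edgeR adjusted p = 0.00046). SNHG7, the host of SNORA17A and SNORA17B, stood at 61.6, 64.7 and 66.3 CPM in GFP and at 102, 77.7 and 78.3 CPM in GSTA4. GSTA4 replicate 1 was well above the other GSTA4 libraries, which still exceeded all GFP libraries. The difference was 1.34-fold (log2 0.42, SE 0.094, edgeR adjusted p = 0.00182). With WT in place of GFP as the control, the SNHG7 difference was 0.23 and was not called (edgeR adjusted p = 0.0551).

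SNHG5 moved the other way. It stood at 16.2, 12.4 and 11.1 CPM in GFP and at 7.82, 8.26 and 9.15 CPM in GSTA4. The GSTA4 libraries lay close together, and the GFP libraries were spread, with replicate 1 the highest. The log2 difference was -0.65 (SE 0.175, edgeR adjusted p = 0.00757). Without GFP replicate 1 it was -0.49 and was not called (adjusted p = 0.0639). Against WT, where SNHG5 stood at 16.7, 12.04 and 13.8 CPM, every GSTA4 library was lower too.

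The ratio of 2 members within a library does not depend on how libraries are scaled. The log2 ratio of SNHG5 to GAS5 reads was -5.25 ± 0.119 in GSTA4, -4.56 ± 0.361 in OSK, -4.15 ± 0.328 in GFP and -3.88 ± 0.269 in WT (SD, n = 3). It was thus lowest in the GSTA4 libraries. For SNHG15 the ratio to GAS5 stayed between -4.32 and -4.00 on average in the 4 groups. SNHG12 to GAS5 was also lowest in GSTA4: -3.97 ± 0.180 in GSTA4, -3.41 ± 0.238 in GFP, -3.26 ± 0.250 in OSK and -2.86 ± 0.190 in WT. These ratios compare reads of genes of different length and are used only across groups.

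The remaining 4 members were not called between GSTA4 and GFP. SNHG1, the host of the SNORD22 and SNORD25 to SNORD31 group, had a log2 difference of 0.14 (SE 0.0906). SNHG6, the host of SNORD87, had 0.16 (SE 0.0806), and SNHG16, the host of SNORD1A to SNORD1C, had 0.05 (SE 0.069). SNHG12 had -0.09 (SE 0.126). None was called (edgeR adjusted p = 0.144 to 0.641), and the libraries of the groups overlapped for all 4, which is no evidence that they were equal. With WT as the control, 3 of them were called in GSTA4: SNHG1 higher (log2 0.35, edgeR adjusted p = 0.00418), SNHG16 higher (0.22, adjusted p = 0.0163) and SNHG12 lower (-0.48, adjusted p = 0.00421). GSTA4 against WT called 5864 of all 15179 genes tested. Between GSTA4 and GFP, the groups of 5 members did not overlap, beside 42.3% of all genes.

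**Figure D2:**
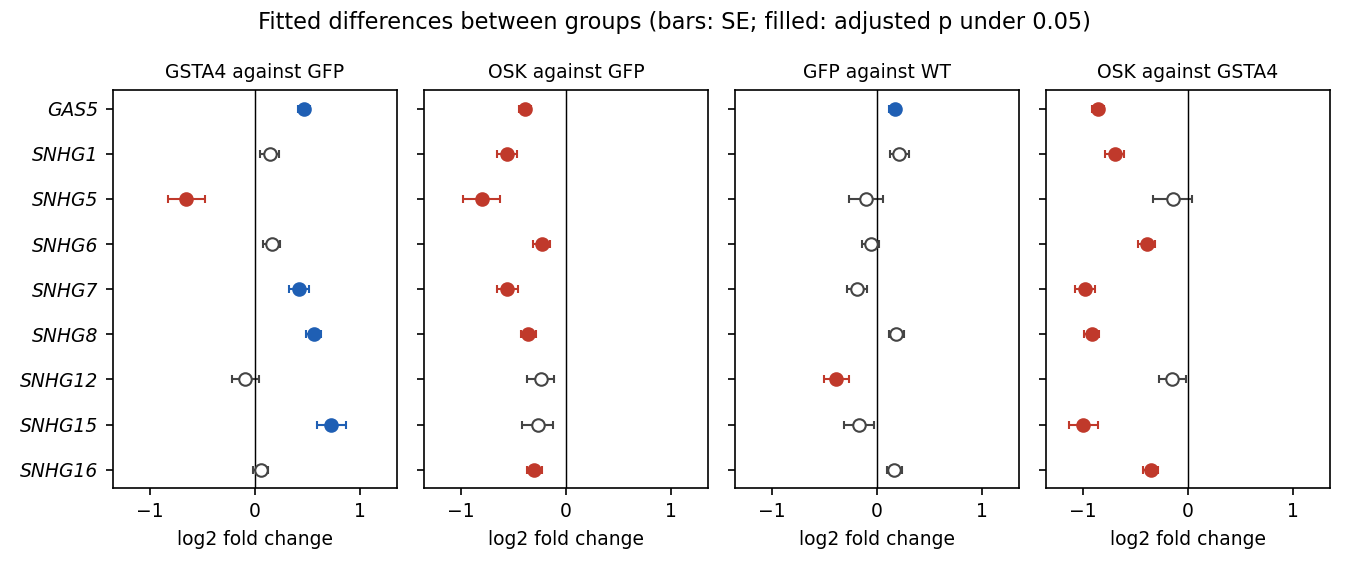
Fitted log2 fold changes (x axis) of the 9 host genes in 4 contrasts from edgeR. Bars are SE and filled points are called at an adjusted p under 0.05. In GSTA4 against GFP, 4 members are filled to the right and SNHG5 to the left; in OSK against GFP and OSK against GSTA4, every filled point lies to the left.

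OSK cells express reprogramming factors, and the comparison with GFP asks what these factors change. The host genes were lower in OSK: 7 of the 9 were called lower and none higher, by edgeR and by DESeq2, and none was higher at an unadjusted edgeR p under 0.05. SNHG5 was the furthest down in fold, followed by SNHG1, SNHG7 and GAS5, while SNHG12 and SNHG15 were not called. Of all genes tested, 45.9% were called, 23.1% higher and 22.8% lower. The members' median log2 difference was -0.36, against -0.02 over all genes. This contrast uses the same GFP libraries as the contrast of GSTA4 with GFP.

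SNHG1 stood at 53.2, 58.9 and 48.98 CPM in GFP and at 35.9, 36.7 and 36.6 CPM in OSK. The OSK libraries were nearly equal and all below every other library of the study. The log2 difference was -0.56 (SE 0.0932, edgeR adjusted p = 4.88e-05), or 32.2% lower. SNHG7 stood at 40.6, 43.6 and 46.6 CPM in OSK, likewise below all other libraries. It was 32.1% lower than in GFP (log2 -0.56, SE 0.0973, edgeR adjusted p = 8.16e-05).

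GAS5 stood at 170.0, 178 and 183 CPM in OSK, below each of the 204, 214 and 202 CPM of WT as well as below GFP. It was 23.7% lower than in GFP (log2 -0.39, SE 0.0572, edgeR adjusted p = 1.07e-05). SNHG8 stood at 65.0, 74.3 and 79.99 CPM in OSK. All 3 values were below GFP, while the highest came close to the lowest WT library, at 80.2 CPM. It was 21.97% lower than in GFP (log2 -0.36, SE 0.0728, edgeR adjusted p = 0.000414). Against WT the SNHG8 difference was -0.17 and was not called (edgeR adjusted p = 0.0576).

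SNHG5 stood at 9.61, 6.46 and 6.75 CPM in OSK. No OSK library reached a GFP library, but OSK overlapped GSTA4. The difference from GFP was 42.6% (log2 -0.80, SE 0.176, edgeR adjusted p = 0.000882). SNHG5 was the 1 member called lower in both GSTA4 and OSK against GFP.

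SNHG16 and SNHG6 had the smallest called differences. SNHG16 stood at 74.1, 66.5 and 72.0 CPM in GFP and at 56.0, 60.4 and 56.1 CPM in OSK (log2 -0.30, SE 0.0698, edgeR adjusted p = 0.00135). It overlapped WT, whose libraries were at 58.3, 66.2 and 65.3 CPM, and was not called against WT (log2 -0.14, edgeR adjusted p = 0.121). SNHG6 stood at 55.8, 63.2 and 64.7 CPM in GFP and at 55.2, 50.2 and 51.4 CPM in OSK. The groups were separated by under 1 CPM. The log2 difference was -0.23 (SE 0.0817, edgeR adjusted p = 0.0265), and the call was lost without GFP replicate 2 (adjusted p = 0.0937), GFP replicate 3 (0.117), OSK replicate 2 (0.108) or OSK replicate 3 (0.0817), and with no filter on low counts (0.0564).

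SNHG12 and SNHG15 had log2 differences of -0.24 (SE 0.127) and -0.27 (SE 0.148) and were not called (edgeR adjusted p = 0.13 and 0.149). SNHG15 stood at 9.04, 9.56 and 10.3 CPM in OSK, overlapping GFP by 1 library. SNHG12 stood at 25.1, 20.4 and 20.3 CPM in GFP and at 21.6, 17.4 and 16.7 CPM in OSK. Both were called lower in OSK when WT was the control (log2 -0.63 and -0.44, edgeR adjusted p = 0.000303 and 0.0174). SNHG12 was also called against GFP without OSK replicate 1 (adjusted p = 0.0485). The groups of 7 members did not overlap between OSK and GFP, beside 54.7% of all genes.

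Set against each other, OSK and GSTA4 gave the widest gaps. OSK was lower for 7 of 9 members, none was higher, and 47.8% of all genes were called (24.1% higher and 23.8% lower). SNHG15 was 49.8% lower in OSK than in GSTA4 (log2 -0.996, SE 0.141, edgeR adjusted p = 5.99e-06) and SNHG7 49.3% lower (log2 -0.98, SE 0.0961, adjusted p = 3.32e-08). SNHG8 was 47.1% lower (log2 -0.92, SE 0.072, edgeR adjusted p = 1.15e-09) and GAS5 44.7% lower (log2 -0.85, SE 0.0572, adjusted p = 9.25e-11). These are the members that were called higher in GSTA4 than in GFP. SNHG1 differed by -0.70, SNHG6 by -0.39 and SNHG16 by -0.35 on the log2 scale (edgeR adjusted p = 2.37e-06 to 0.000438). SNHG5 and SNHG12 both had -0.15 (SE 0.183 and 0.127) and were not called (edgeR adjusted p = 0.539 and 0.354). The median of the 9 was -0.70, against -0.01 over all genes. All 7 called members had no overlap between the groups, beside 58% of all genes.

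The GFP line was compared with WT to show what the control line itself changed. Of the 9 members, 2 were called: GAS5 was higher in GFP (log2 0.17, SE 0.0569, edgeR adjusted p = 0.0404) and SNHG12 lower (log2 -0.39, SE 0.123, adjusted p = 0.0285). Of all genes tested, 22.2% were called, 11% higher and 11.2% lower, so the members' share is the same as the background. The GAS5 groups did not overlap. SNHG12 stood at 32.6, 28.3 and 25.0 CPM in WT, and GFP replicate 1, at 25.1 CPM, overlapped that range. The library numbered 1 had the highest SNHG12 level in each of the 4 groups, the others being GSTA4 at 23.1, 18.8 and 19.7 CPM and OSK as above.

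Neither call was stable. Without WT replicate 1 both were lost (edgeR adjusted p = 0.0898 for GAS5 and 0.121 for SNHG12), and SNHG1 was called instead (log2 0.30, adjusted p = 0.0194). Across all settings tried, the adjusted p of GAS5 ran from 0.022 to 0.189 and that of SNHG12 from 0.00326 to 0.121. The other 7 members had log2 differences from -0.19 for SNHG7 to 0.21 for SNHG1 and were not called (edgeR adjusted p = 0.0737 to 0.705). The groups of SNHG7, SNHG8, SNHG16 and GAS5 did not overlap, 4 of 9 members, beside 34.6% of all genes.

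Divided by exon length, the order of the members changed. On the scale of CPM per kilobase of the union of GENCODE exons, the WT levels were 89.4 ± 3.13 for SNHG8, 56.9 ± 1.79 for GAS5 and 51.2 ± 5.20 for SNHG6. SNHG8 has a short exon union, 923 bases against 3631 for GAS5, and its lead over GAS5 held in every group, with 79.2 against 48.7 in OSK. In WT the GAS5 and SNHG6 means differed by less than the sum of their SDs. The next members in WT, SNHG7 at 16.9 ± 1.55, SNHG1 at 12.3 ± 1.43 and SNHG16 at 11.8 ± 0.803, were well below, and SNHG1 and SNHG16 did not differ beyond their spread. SNHG12 at 6.71 ± 0.892, SNHG5 at 5.05 ± 0.833 and SNHG15 at 3.58 ± 0.756 CPM per kilobase were lowest. In GSTA4, SNHG15 at 5.28 ± 0.259 stood above SNHG5 at 3.00 ± 0.242, the reverse of their order in WT. Transcripts that leave out some exons make these levels too low, and the table's own annotation may have other exons.

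The shape of each member across the groups was compared as its mean log2 CPM per group, centred on the mean of the 4 groups, with a pseudocount of 0.5 CPM. The mean shape of the 9 was 0.25 in GSTA4, 0.06 in WT, 0.05 in GFP and -0.36 in OSK. GAS5 and SNHG8 were the closest pair, with a root mean square distance of 0.0419 over the 4 groups, although they lie on different chromosomes. SNHG5 and SNHG8 were the farthest pair, at 0.546. SNHG6 and SNHG16, both with small differences, came second closest at 0.0797. SNHG5 and SNHG12 were the members furthest from the mean shape, at 0.353 and 0.239. Of 9596 genes with a mean of at least 10 CPM, those nearest to the mean shape of the host genes were PARP3 (distance 0.00868), CAMLG (0.0126), UBE4B (0.0159), GRINA (0.0177) and PTPRF (0.0192), all protein-coding. PARP3, for example, averaged 29.5 CPM in GSTA4 and 19.1 in OSK, with WT at 26.1 and GFP at 25.9. Of 77 ribosomal protein genes compared, 0 were among the 100 nearest genes, which make up 1.04% of all genes compared. Distances over 4 group means are a description.

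Of 22 other noncoding snoRNA host genes, 20 passed the low-count filter. Against GFP, 6 were called higher and 1 lower in GSTA4 (median log2 0.17), and 1 was called higher and 9 lower in OSK (median -0.44). Without GFP replicate 1, 2 were called higher and 1 lower in GSTA4, and none higher and 9 lower in OSK. Summed, they reached 779 CPM in OSK, 966 in WT, 1114 in GFP and 1245 in GSTA4. The 3 with the most reads were SNHG29, SNHG32 and SNHG14. SNHG29 averaged 542 ± 15.3 CPM in GSTA4, 478 ± 48.6 in GFP, 385 ± 15.2 in WT and 314 ± 5.34 in OSK (SD, n = 3). It was called lower in OSK than in GFP (log2 -0.60, edgeR adjusted p = 2.41e-07) and slightly higher in GSTA4 (log2 0.18, adjusted p = 0.0442). SNHG32 was called in the same directions (log2 -0.53 in OSK and 0.19 in GSTA4), and SNHG14 was called in OSK (log2 -0.60, edgeR adjusted p = 7.72e-05) but not in GSTA4 (log2 0.12, adjusted p = 0.41). All 3 were also called higher in GFP than in WT: SNHG29 by log2 0.31, SNHG32 by 0.23 and SNHG14 by 0.37 (edgeR adjusted p = 0.00208 to 0.0141). In that contrast 3 of the 20 were called higher and 2 lower, beside 22.2% of all genes called. For this list and those below, the shares of all genes called against GFP were 29.2% in GSTA4 and 45.9% in OSK.

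The 79 genes of cytosolic ribosomal proteins are the classical TOP genes. In GSTA4, 51 were called higher and none lower than in GFP (median log2 0.22; DESeq2 called 56 higher and none lower), and in OSK 2 were called higher and 36 lower (median -0.17). In GFP against WT, 27 ribosomal protein genes were called higher and none lower, and 1 host gene was called in each direction. The difference between these lists was not tested. These counts move with 1 library: the summed level of the ribosomal protein genes was 49936 CPM in GFP replicate 1, against 59501 and 59235 in the other GFP libraries and 49707 to 51964 in OSK. Without GFP replicate 1, 31 were called higher and 1 lower in GSTA4, 2 higher and 63 lower in OSK, and 55 higher and none lower in GFP against WT. Without WT replicate 1 the last count was 16 higher. RPL3, a large-subunit protein, averaged 2383 CPM in WT and 2394 in OSK, with 2714 in GFP and 3200.0 in GSTA4. It was called in GSTA4 (log2 0.24, edgeR adjusted p = 0.0224) and missed the threshold in OSK (log2 -0.18, adjusted p = 0.0559). RPL4 behaved alike in GSTA4 (log2 0.21) and in OSK (log2 -0.17, not called). RPL13A, itself a snoRNA host, was called lower in OSK (log2 -0.17, edgeR adjusted p = 0.0471) and was not called in GSTA4 (log2 0.16, adjusted p = 0.0783). Of 21 other TOP genes tested, such as translation factors, 10 were called higher in GSTA4 and none lower (1 lower by DESeq2), and 1 was called higher and 14 lower in OSK. Their sum too was lowest in GFP replicate 1, at 30915 CPM against 35513 and 36125, and without it 7 were called higher in GSTA4 and 16 lower in OSK. Among these, PABPC1, a poly(A)-binding protein, was 0.27 higher in GSTA4 on the log2 scale and EEF2, an elongation factor and snoRNA host, 0.34 higher. EEF1A1 had 0.02 and was not called. In OSK against GFP none of these named genes was called (log2 -0.14 for PABPC1, -0.03 for EEF2 and -0.16 for EEF1A1).

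Protein-coding snoRNA hosts outside the ribosomal proteins were called mostly higher in GSTA4 and in both directions in OSK. Of 30 tested, 12 were called higher and 1 lower in GSTA4 than in GFP, and 5 higher and 3 lower in OSK (median log2 0.02). Over all genes, 29.2% were called in GSTA4 and 45.9% in OSK. Without WT replicate 1, 10 were called higher and 4 lower in OSK. RACK1, a ribosome-bound scaffold protein, was called higher in GSTA4 (log2 0.30) and lower in OSK (log2 -0.20, edgeR adjusted p = 0.022). TPT1 was called in neither (log2 -0.06 and 0.14).

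**Figure D3:**
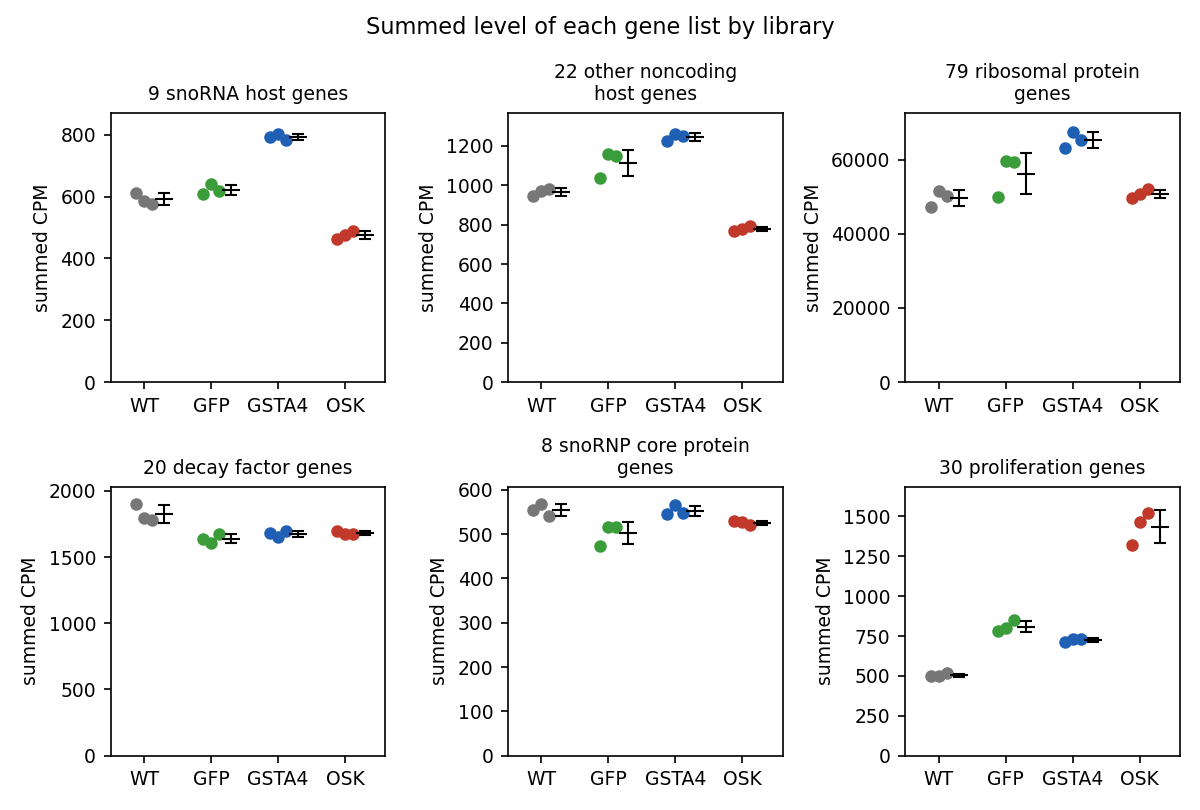
Summed TMM-scaled CPM (y axis, from 0) of 6 gene lists in each of the 12 libraries, with mean and SD of 3. The 9 host genes and the 22 other noncoding host genes are lowest in OSK, at 475 and 779 CPM on average, where the proliferation genes are highest, at 1436 CPM. The proliferation genes are lowest in WT, at 504 CPM, while both host gene lists are highest in GSTA4.

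Proteins that bind and assemble snoRNAs were described from 2 lists. Of 8 core proteins of snoRNA ribonucleoproteins, 3 were called higher in GSTA4 than in GFP, and 1 higher and none lower in OSK. In GFP against WT, none was called higher and 2 lower, beside 22.2% of all genes called. FBL, fibrillarin, the methyltransferase of box C/D particles, was not called in any contrast (log2 -0.05 in GSTA4 and 0.01 in OSK against GFP). SNU13, which binds the box C/D fold, was higher than in GFP in both GSTA4 (log2 0.24, edgeR adjusted p = 0.00308) and OSK (log2 0.27, adjusted p = 0.000475). NOP56 was called in neither (log2 0.05 and -0.06). Of 12 assembly and transport factors, 2 were called higher in GSTA4, and 3 higher and 2 lower in OSK, where 45.9% of all genes were called. RUVBL2, an ATPase of the assembly machinery, was higher than in GFP in both (log2 0.34 and 0.22). NOLC1 (log2 0.04 and 0.03) and RUVBL1 (log2 0.13 and 0.09) were called in neither.

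Of 30 genes of ribosomal RNA synthesis and processing, 11 were called higher and none lower in GSTA4 (7 higher without GFP replicate 1), and 5 higher and 6 lower in OSK. Over all genes, 29.2% were called in GSTA4 and 45.9% in OSK. NPM1, nucleophosmin, itself part of the nucleolus, was higher in GSTA4 (log2 0.17, edgeR adjusted p = 0.0443) and lower in OSK (log2 -0.38, adjusted p = 3.36e-05). NCL, nucleolin, was higher in GSTA4 (log2 0.25) and not called in OSK (log2 0.03). POLR1A, the largest subunit of RNA polymerase I, was lower in OSK (log2 -0.26, edgeR adjusted p = 0.000912).

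Nonsense-mediated decay factors, whose pathway can remove spliced transcripts of noncoding hosts, gave medians near 0 in GSTA4 and OSK. Of 20 tested, none was called in GSTA4 against GFP by edgeR or by DESeq2, with 2 at an unadjusted edgeR p under 0.05. In OSK against GFP 2 were called higher and 2 lower, where 45.9% of all genes were called. UPF1, the helicase of the pathway, had log2 differences of 0.03 in GSTA4 and 0.13 in OSK, neither called. SMG1 had -0.09 and -0.02, neither called. In GFP against WT, 1 was called higher and 5 lower, among them UPF1 (log2 -0.22, edgeR adjusted p = 0.0141) and SMG5 (log2 -0.34, adjusted p = 0.000797). Without WT replicate 1, 1 factor was called higher in GSTA4.

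**Figure D4:**
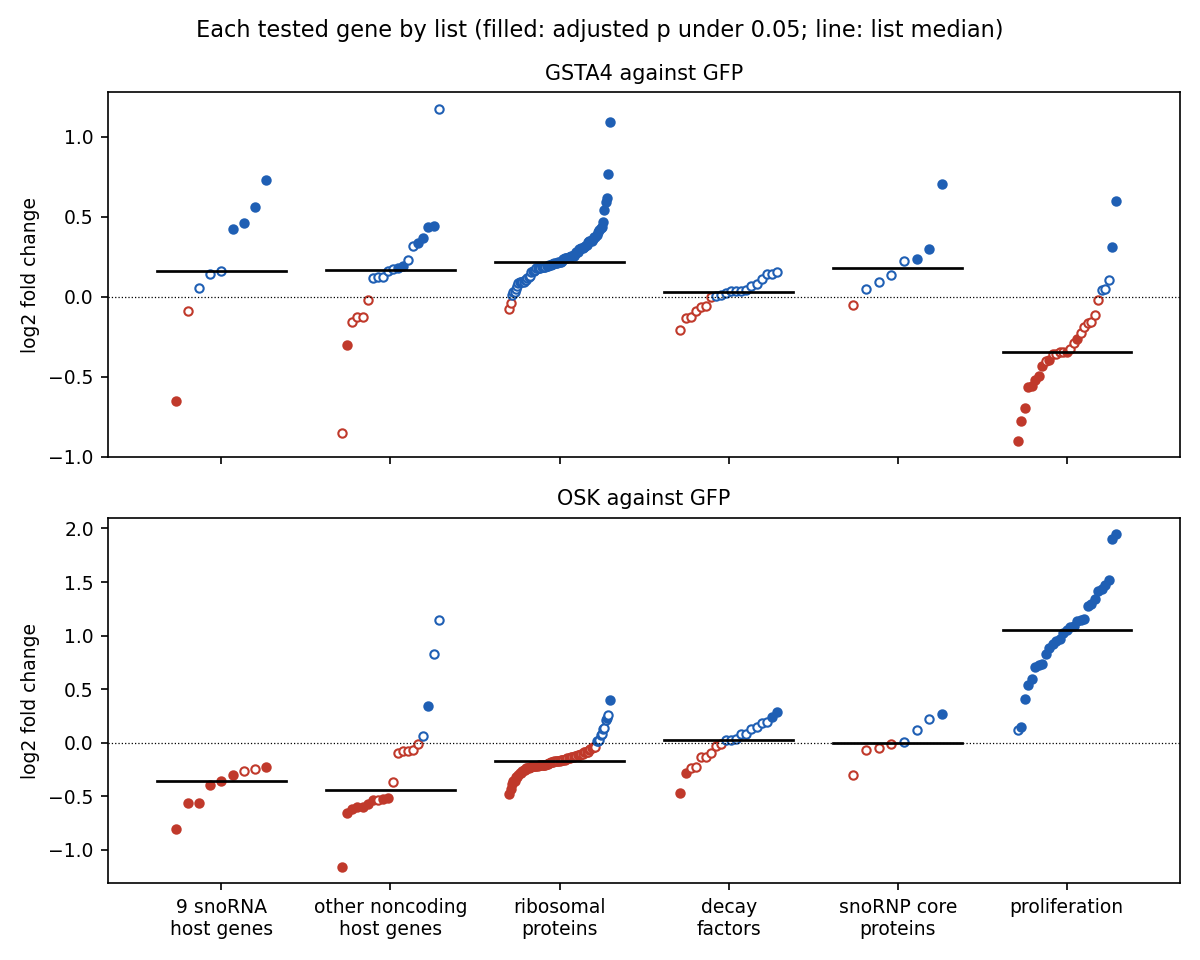
Fitted log2 fold change (y axis) of each tested gene in 6 lists, in GSTA4 against GFP (top) and OSK against GFP (bottom). Filled points are called at an adjusted p under 0.05 and lines are list medians. The medians of both host gene lists lie above 0 in GSTA4 (0.16 and 0.17) and below 0 in OSK (-0.36 and -0.44), and those of the decay factors lie near 0 (0.03 and 0.02).

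Proliferation genes were called mostly lower in GSTA4 and higher in OSK. Of 29 tested, 2 were called higher and 11 lower in GSTA4 than in GFP, and 28 higher and none lower in OSK. In GFP against WT, 26 were called higher and 1 lower. MKI67, a marker of cycling cells, averaged 154 ± 11.8 CPM in OSK, 57.8 ± 1.28 in GFP, 42.8 ± 3.98 in GSTA4 and 10.4 ± 3.09 in WT (SD, n = 3). The summed host genes were lowest in OSK, the group with the highest proliferation genes. WT had the lowest proliferation genes but not the highest host genes. The proliferation genes summed to 504 CPM in WT, 725 in GSTA4 and 810 in GFP. The host genes summed to 591 CPM in WT, 793 in GSTA4 and 622 in GFP. GFP and WT had 2 host genes called between them. MCM7, a helicase subunit and the list's member with the most reads, was higher in GSTA4 (log2 0.31). MCM3 and PCNA, the next by reads, averaged 84.2 and 70.6 CPM in GFP, 77.8 and 72.8 in GSTA4, and 112 and 102 in OSK. The part of proliferation in the host gene levels was not tested.

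Cell type markers differed between the groups as well. The 15 retinal pigment epithelium markers summed to 2420 to 2658 CPM in the WT libraries, 2187 to 2521 in GFP, 1572 to 1645 in GSTA4 and 1388 to 1458 in OSK. The 10 fibroblast markers summed to 1365 to 1652 CPM in WT, 1529 to 1687 in GFP, 1506 to 1684 in GSTA4 and 1006 to 1050.2 in OSK. KRT8 and KRT18 carried much of the first sum, and the counts read differently: of 11 tested retinal pigment epithelium markers, 8 were called higher and 2 lower in GFP against WT (median log2 0.76), 1 higher and 8 lower in GSTA4 against GFP, and 11 lower in OSK against GFP. PMEL, a melanosome protein, averaged 357 CPM in GFP, 245 in WT, 111 in OSK and 101 in GSTA4. Of 5 tested fibroblast markers, 2 were called higher and 2 lower in GSTA4 against GFP, and 5 lower in OSK against GFP. COL1A1, a collagen chain, averaged 82.6 CPM in GFP, 4.53 in GSTA4 and 20.9 in OSK, while VIM, vimentin, averaged 549, 728 and 434 CPM. PDGFRB and FN1 averaged 660 and 264 CPM in GFP, 539 and 237 in GSTA4, and 343 and 175 in OSK. The 8 pluripotent cell markers summed to at most 4.71 CPM in any library, with 5 of them at 0 reads throughout OSK. The 6 neural retina markers summed to at most 4.33 CPM. The part of these markers in the host gene results was not tested.

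The snoRNAs themselves were almost unread. The table lists 2 of 10 snoRNAs looked up for GAS5 and 7 of 8 for SNHG1. Summed over the first line of each name, their levels were at most 0.287 and 0.0712 CPM in any library. Some names, such as SNORD81 with 3 lines, stand on more than 1 line, and the further lines were not read. SNORD99, in an intron of SNHG12, had reads in all 12 libraries, with at most 14 in a library and mean levels of 0.6, 0.144, 0.234 and 0.2 CPM in WT, GFP, GSTA4 and OSK. None of the lines read passed the low-count filter. Mature snoRNAs carry no poly(A) tail, so their levels are not measured here.

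Several members share bases with a gene on the other strand, and the strand setting of the counting is not given in the sources used here, so reads of both cannot be told apart where they overlap. The shared bases were taken over whole gene spans, introns included, and the overlap of exons was not measured. SNHG7 shares 2685 bases with DIPK1B (FAM69B in GENCODE 29), GAS5 801 with ZBTB37 and 42 with GAS5-AS1, SNHG6 365 with MCMDC2, and SNHG12 8 with TRNAU1AP. SNHG16 shares 1639 bases with AC015802.6, which had no line under that name in the count table. DIPK1B averaged 1.97 CPM in GFP, 3.88 in GSTA4 and 1.44 in OSK, and was called higher in GSTA4 (log2 0.98, edgeR adjusted p = 0.0135), in the direction of SNHG7, whose levels were over 60 CPM in both groups. ZBTB37 averaged 23.4 CPM in GFP, 24.0 in GSTA4 and 17.0 in OSK. It was called lower in OSK (log2 -0.46, edgeR adjusted p = 0.00248) and was not called in GSTA4 (log2 0.04), where GAS5 was higher. The part of these neighbours in the host gene levels was not tested.

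Genes beside a member went their own way in several cases. SLC3A2, an amino acid transporter subunit that neighbours SNHG1, averaged 781 ± 45.5 CPM in GFP, 383 ± 15.3 in GSTA4 and 552 ± 11.99 in OSK. It was called lower in GSTA4 (log2 -1.03, edgeR adjusted p = 1.7e-10), where SNHG1 was not called, and lower in OSK (log2 -0.50, adjusted p = 2.28e-06), where SNHG1 was lower too. PRSS12, a secreted protease gene that neighbours SNHG8, was lower in GSTA4 (log2 -0.72, edgeR adjusted p = 0.0131), where SNHG8 was higher. ST6GALNAC2, a sialyltransferase gene that neighbours SNHG16, averaged 10.1 ± 1.22 CPM in GFP, 4.54 ± 0.544 in GSTA4 and 11.2 ± 0.950 in OSK. It was called lower in GSTA4 than in GFP (log2 -1.16, edgeR adjusted p = 0.000133), where SNHG16 was not called. It was not called in OSK (log2 0.14, adjusted p = 0.544), where SNHG16 was lower.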

How the data were processed

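Poly(A) RNA-seq of 12 ARPE-19 libraries was used as deposited: a table of raw read counts per gene, whose submitters' processing notes name STAR 2.7.1a and featureCounts 1.6.2. The strand setting and annotation release are not given in the sources used here. Of 60605 lines, 20014 had no gene name (0.485% to 0.822% of a library's reads) and were left out. Groups came from the sample labels. Counts were scaled by TMM and tested with edgeR 4.0.16 (R 4.3.3, limma 3.58.1 loaded) using quasi-likelihood tests on 12 libraries and 4 group means, after filterByExpr, with Benjamini-Hochberg adjustment over the 15179 genes tested per contrast and a threshold of 0.05. SE is the log2 fold change over the square root of F. On simulated data, changes of 1 on the log2 scale were recovered in 86% to 89% of genes and of 0.5 in 53% to 58%. There were 5 to 20 false calls a contrast. The simulation changed 100 of 15179 genes at each size and set no library apart, so its rates may not hold for these data. Alternatives used DESeq2 1.42.0, other scalings and filters, and left-out libraries. The members and lists were chosen with earlier results of these data known. Named genes were the 9 members, the 3 tested genes with the highest mean CPM of each list and the 5 genes nearest in shape. No tested gene is named from the pluripotent and neural retina markers. MKI67, COL1A1, the expressed genes, marker genes at low levels, and overlapping or neighbouring genes are named besides. Sequences are from RefSeq (GRCh38.p14) and GENCODE 29.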

Additional observations from a re-analysis of the deposited data

Results flagged for a closer look

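GAS5, SNHG7 and SNHG8 were picked by a rule. Each had to be called higher than GFP in GSTA4, lower than GFP in OSK, and different between OSK and GSTA4. The OSK minus GSTA4 differences fitted by edgeR were -0.85 for GAS5, -0.98 for SNHG7 and -0.92 for SNHG8 on the log2 scale. They combine both gaps from GFP, and their call was part of the rule, so it adds no separate support. Both contrasts with GFP use the same GFP libraries.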

How the results depend on the processing

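The counts of called members were 5 in GSTA4 against GFP, 7 in OSK against GFP, 2 in GFP against WT, 7 in OSK against GSTA4 and 9 over all groups. Leaving out each library in turn gave 4 to 5, 6 to 8, 0 to 2, 7 to 7 and 9 to 9. In GFP against WT the count was 1 with no filter on low counts and 1 with only the 6 libraries compared; the cause was not tested. Of 411 alternative values of the 21 called differences, 388 stayed called in the same direction, 23 missed the threshold and 0 changed sign. The 411 include fits that left out a library of neither group compared, a weaker challenge, and fits with WT in place of GFP. Leaving out 1 library turned the sign of 4 differences that were not called. SNHG12 in GSTA4 against GFP ran from -0.18 to 0.016 (0.016 without GFP replicate 1). In GFP against WT, SNHG5 ran from -0.27 to 0.023, SNHG6 from -0.10 to 0.025 and SNHG15 from -0.28 to 0.013, each highest without WT replicate 1. With WT as the control, 7 members were called in GSTA4 (5 higher, 2 lower; 4 shared) and 7 in OSK (5 shared). Of all 15179 genes tested, 5864 and 6890 were called there, against 4439 and 6962 with GFP as the control. Scaling by library size alone kept all member counts but changed the split over all genes in OSK against GFP from 3508 higher and 3454 lower to 2761 and 4180, and in OSK against GSTA4 from 3655 and 3607 to 3156 and 4277. Same-numbered libraries did not meet the rule for pairing, a correlation of their deviations over 0.1 in every pair (-0.0204 to 0.169), but 8 of 12 libraries correlated best with their own number, a hint from the data and not the design. With the replicate number as a block the counts were 5, 8, 3, 7 and 9, the added calls being SNHG12 in OSK against GFP (-0.24, adjusted p = 0.0376) and SNHG8 in GFP against WT (adjusted p = 0.0356). With that block 4734, 7269, 3779, 7476 and 10363 of all 15179 genes were called. The list counts without GFP or WT replicate 1 were chosen after seeing the data. Depth limits SNHG5 and SNHG15 most.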
